A study of Mus musculus with 54 samples.

Results

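The cytoplasmic ribosomal protein genes encode the protein subunits of the ribosome that translates nuclear mRNAs. They were taken by name: symbols beginning Rpl or Rps followed by a number, with an optional letter, together with Rpsa, Rplp0, Rplp1 and Rplp2, and with a median level of at least 1 FPKM over all 54 libraries. FPKM counts fragments relative to transcript length and to all fragments mapped in a library, so it is a level per length and also a share of its library. Of the 13611 genes measured, 61 symbols matched, 4 of these ended in l and were left out (Rpl32l, Rpl39l, Rps27l and Rps4l), and the remaining 57 all passed the level limit. The lowest medians among them were 2.62 FPKM for Rps27a, 3.22 FPKM for Rpl10 and 3.24 FPKM for Rpl5, so no gene lay just outside the limit. The 57 comprise 24 proteins of the small subunit, 30 of the large subunit and the 3 proteins of the P stalk. Their genes lie on 18 different chromosomes in RefSeq's GRCm38.p6 annotation. Several well-known members of the family, among them Rpl11, Rpl26 and Rps27, were not analysed here.

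The study followed mouse RNA after ionizing radiation and, per its title, relates tissue differences in p53 dynamics to radiation sensitivity. From C57B6 mice, the thymus, the spleen and both the small and the large intestine were each sampled once without treatment (0 h), once at every hour from 1 to 8 h and once at 24 h after 10 Gy, which gave 40 tissue libraries. The fibroblast cell line NIH3T3, derived from mouse embryos, was sampled once untreated, once at every hour from 1 to 12 h and once at 24 h after the same dose, which gave the other 14. The labels give no age or sex of the mice, nor whether each library had its own animal or culture. P-values therefore measure only the spread between these libraries, which may be technical. Because each hour had 1 library, neighbouring hours served as replicates, in windows of 1 to 2 h, 3 to 5 h, 6 to 8 h and, in NIH3T3, 9 to 12 h. The spread within a window therefore also holds any change between its hours. The single 0 h and 24 h libraries were assumed to vary as much as the libraries within windows.

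A ribosome carries 1 copy of nearly every one of these proteins, and cells make them in matched amounts because unassembled subunits are degraded. Their mRNAs belong to the TOP class: they begin with a run of pyrimidines, which lets the mTOR pathway switch their translation as a group. In p53 biology the family has a second role, since free Rpl5, Rpl23 and Rps7 can bind Mdm2, the ligase that marks p53 for destruction. Making ribosomes is among the largest costs of a growing cell, and lymphocytes that are activated or dividing are known for abundant ribosomal transcripts.

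Sequences around the annotated start sites are given for the pyrimidine runs near them. A TOP run begins the mRNA, while the runs marked here may lie anywhere in the window. That of Rpl4, for one, ends before the annotated start, so a marked run does not show membership of the TOP class. RefSeq promoters of the GRCm38.p6 build (250 bases before to 50 after the annotated start) were present for 40 of the 57 genes. The first 5 sequences belong to genes that were lower in spleen at 6 to 8 h and that carry a run of at least 8 pyrimidines within 15 bases of the start. The next 3 belong to genes that were lower there without such a run, and the last 2 belong to genes that did not pass that test. Each is 30 bases long, 5′ to 3′ on the strand of the gene, and capitals mark the longest unbroken run of C and T in the 30 bases.
Rpl35a, chr16:33056467-33056496, plus strand: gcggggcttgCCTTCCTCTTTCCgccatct
Rps18, chr17:33955651-33955680, minus strand: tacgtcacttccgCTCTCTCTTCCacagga
Rps24, chr14:24490663-24490692, plus strand: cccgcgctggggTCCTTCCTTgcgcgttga
Rpl4, chr9:64173372-64173401, plus strand: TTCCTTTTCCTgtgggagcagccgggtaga
Rpl13a, chr7:45128731-45128760, minus strand: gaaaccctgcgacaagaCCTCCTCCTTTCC
Rpl6, chr5:121204486-121204515, plus strand: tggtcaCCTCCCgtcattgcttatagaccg
Rpsa, chr9:120127751-120127780, plus strand: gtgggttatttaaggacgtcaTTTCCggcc
Rps3, chr7:99483695-99483724, minus strand: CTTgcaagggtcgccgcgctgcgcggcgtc
Rpl15, chr14:18270972-18271001, minus strand: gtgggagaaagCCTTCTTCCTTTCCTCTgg
Rps19, chr7:24884577-24884606, plus strand: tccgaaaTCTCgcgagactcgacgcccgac

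A run of at least 8 pyrimidines in this window was present in 21 of the 40 ribosomal protein genes with a promoter (52.5%), and in 15.2% of the 10360 measured genes that had one. The longest among the sequences shown, 17 bases, belonged to Rpl15. The letters CCGGAAG, the core bound by ETS family factors, occurred on either strand of the full promoter in 19 of the 40 (47.5%) and in 18.6% of the measured genes. The E-box CACGTG, the site of Myc and related factors, occurred in 6 of the 40 (15%) and in 11.4% of the measured genes. The letters ATGGCGG, the core of the YY1 site, also occurred in 6 of the 40 (15%), against 8.8%. The motifs were searched separately on both strands, so their matches may overlap one another. These are matches of letters in a fixed window around annotated starts, and several genes have more than 1 annotated start.

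Some libraries carried transcripts of other organs, and these are named here once. The count in spleen is given with and without the 6 h library, while the 24 h thymus library is the only one of its group and could not be left out. The spleen library at 6 h held pancreatic acinar markers summing to 46200 FPKM, against 25.8 FPKM at 0 h, at most 26.3 FPKM at 1 to 5 h and 64.9 FPKM at 24 h. The large intestine library at 2 h held small intestine enterocyte markers at 20500 FPKM, against 1620 FPKM at 0 h, 1470 to 2080 FPKM at 6 to 8 h and 1210 FPKM at 24 h. The large intestine library at 1 h held the least of these enterocyte markers, 103 FPKM. Its pancreatic markers were the highest of that tissue at 433 FPKM, against 52 FPKM at 0 h and 40.8 to 155 FPKM at 6 to 8 h. The thymus library at 24 h held the same enterocyte markers at 5460 FPKM, against at most 16.5 FPKM in the other thymus libraries. Relative depth, read from the steps between low FPKM values and therefore rough, was 0.246 of the 0 h library in thymus at 8 h and 0.313 at 24 h, and between 0.491 and 1.9 in the others.

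In every system the genes differed in level from one another by more than 2 orders of size, although a ribosome carries 1 copy of nearly every one of their proteins. Rplp1, a P stalk protein that helps bring elongation factors to the ribosome, had the highest level in all 5 systems. Its mean over 1 to 8 h was 2640 FPKM ± 390 (SD, n = 8) in spleen, 2190 ± 280 in NIH3T3, 1500 ± 190 in large intestine, 1170 ± 230 in thymus and 1090 ± 120 in small intestine. Rpl41, the shortest of the family, was among the highest 3 in both intestines and in NIH3T3, and Rps15 in spleen and thymus. At the other end, 11 of the 57 had a median under 20 FPKM over all libraries, among them Rpl5, Rpl10, Rps27a, Rps6 and Rps7. All 11 have at least 1 copy in GENCODE that carries their name as a pseudogene, with a median of 4 copies, against 31 of the other 46, with a median of 1. The labels do not state how fragments were split between a gene and such copies, so these low levels are uncertain, and Rpl5 and Rps7, named above for binding Mdm2, are among them.

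In NIH3T3, 5 genes that were abundant in the tissues were listed near 0. Rps18 lay between 0 and 2.23 FPKM in the 14 NIH3T3 libraries, against 99 to 410 FPKM in spleen and thymus. Rpl35a lay between 0 and 0.737 FPKM there, against 66.1 to 213 FPKM in the 4 tissues, and Rpl3, Rpl29 and Rps2 had medians under 1 FPKM as well. An FPKM of 0 can be a failed estimate and is not read here as absence, so the 5 genes entered no NIH3T3 test and 52 of the 57 were tested in that line. In small intestine, Rpl34 was listed at 0 at 7 h and 8 h, against a median of 11.4 FPKM in the other libraries, and Rps28 was listed at 0 at 2 h, against a median of 10.2 FPKM.

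The tissues kept a clear order in these genes after irradiation. Between 1 and 8 h, spleen and thymus together were higher than the intestines for 46 of the 57 genes and lower for 1 (limma, Benjamini-Hochberg adjusted p below 0.05 over all genes tested), against a background of 43.2% of all genes tested that were higher and 44.1% that were lower. The median difference was 0.46 on the log2(FPKM + 1) scale, against -0.004 for all genes. Rps19, whose loss of 1 copy causes Diamond-Blackfan anaemia in people, differed most, by 1.08 ± 0.06 (SE, adjusted p = 1.66e-14): its mean was 362 FPKM ± 39 in spleen, 221 ± 16 in thymus, 159 ± 23 in large intestine and 113 ± 19 in small intestine (SD, n = 8 each). The 4 tissues stood in that order for Rps19 with no overlap of 1 SD between neighbours. Rps19 has 14 named pseudogenes in GENCODE, and how fragments were split between it and these is not stated. Rpl19, Rps28 and Rps10 followed with differences of 0.96, 0.92 and 0.90. The 1 gene that was lower in the lymphoid organs was Rpl5, by 0.58 ± 0.18 (adjusted p = 0.00519), at the low levels of 1.51 FPKM ± 0.69 in thymus and 3.51 ± 1.3 in spleen against 4.11 ± 2.1 in small intestine and 4.34 ± 1.0 in large intestine.

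Spleen was higher than thymus for 54 of the 57 genes, where 32.7% of all genes tested were higher, with a median difference of 0.84. The widest differences were those of Rplp1 (1.18 ± 0.08, adjusted p = 2.09e-11), Rpl34 (1.16) and Rps2 (1.11), and the 3 genes that did not pass were Rps27a, Rpl31 and Rpl30. Small intestine was lower than large intestine for 45 of the 57, where 29.8% of all genes tested were lower, with a median difference of -0.43. Among the widest were Rps28 (-1.10), Rps21 (-0.75) and Rplp0 (-0.67). These are bulk tissues, in which fewer cells of a type and less RNA per cell cannot be told apart.

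**Figure D1:**
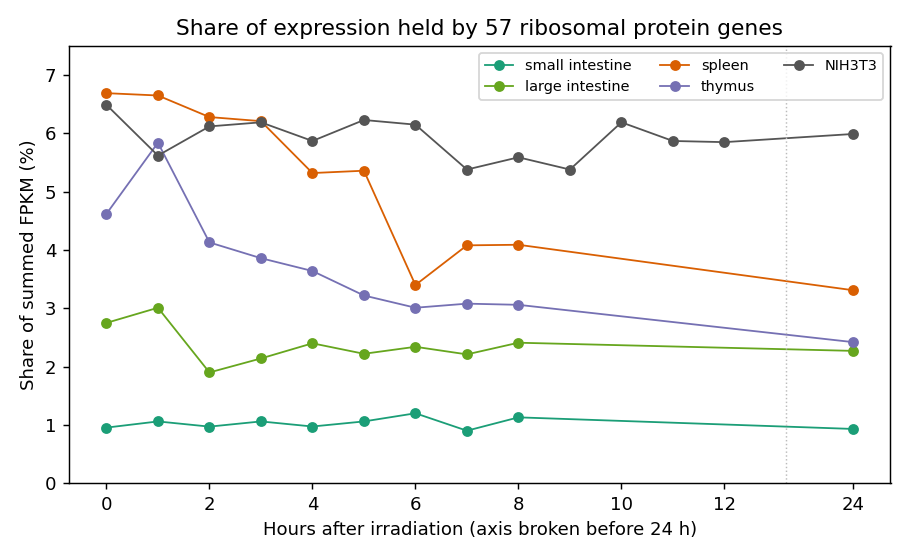
Share of the summed FPKM of each library held by the 57 ribosomal protein genes (vertical axis, percent) by hour after irradiation (horizontal axis, broken before 24 h), 1 point per library. Spleen goes from 6.69% at 0 h to 3.31% at 24 h and thymus from 4.62% to 2.42%, while small intestine stays between 0.901% and 1.2%.

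Summed over the family, the transcripts took a falling share of the lymphoid libraries, as the plot of the share by hour shows. In spleen the 57 genes held 6.69% of all FPKM at 0 h, 5.96% ± 0.59 at 1 to 5 h (SD, n = 5), 3.86% ± 0.40 at 6 to 8 h (SD, n = 3) and 3.31% at 24 h. In thymus they held 4.62% at 0 h, a high of 5.84% at 1 h, 3.05% ± 0.035 at 6 to 8 h and 2.42% at 24 h. Large intestine went from 2.75% to 2.27%, NIH3T3 from 6.49% to 5.99%, and small intestine from 0.954% to 0.931%. The share depends on every abundant transcript of the library: the spleen value at 6 h, the lowest of its window, came from the library with pancreatic transcripts. The changes of single genes are therefore given below.

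In spleen, ribosomal protein transcripts of both subunits were lower at 6 to 8 h than at 1 to 5 h, and no member was called higher. Of the 57 genes, 27 passed the test, all lower (47.4%, against a background of 12.2% of the 11791 genes tested that were lower). The median change was -0.37, against 0.02 for all genes, and 51 of the 57 changes were negative. By role, 12 of 24 small subunit genes, 13 of 30 large subunit genes and 2 of 3 P stalk genes were lower, with medians of -0.42, -0.37 and -0.37. For 33 of the 57, all 3 libraries at 6 to 8 h lay below all 5 at 1 to 5 h, a pattern that 10.7% of all genes tested showed. B cell markers moved with this result: their summed level was 2210 FPKM at 0 h, 574 to 1710 FPKM at 1 to 5 h, 317 to 334 FPKM at 6 to 8 h and 289 FPKM at 24 h, with all 6 markers above 1 FPKM at the median, and their part in it was not tested. T cell markers went from 267 FPKM at 0 h to 105 FPKM at 24 h, and macrophage markers from 857 FPKM to 2600 FPKM. Erythroid markers summed to 704 FPKM at 0 h, 155 to 991 FPKM at 1 to 5 h, 291 to 351 FPKM at 6 to 8 h and 8.99 FPKM at 24 h, and fibroblast markers to 41 FPKM at 0 h and 201 FPKM at 24 h. Their part was not tested either.

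Rps15, a small subunit protein near the centre where codons are read, stood at 2137 FPKM in spleen at 0 h, at 2167, 1935, 1955, 1806 and 1617 FPKM from 1 to 5 h, at 1377, 1271 and 1281 FPKM from 6 to 8 h, and at 1023 FPKM at 24 h. From 2 h on every library lay below the untreated one, and the windows of 1 to 5 h and 6 to 8 h did not overlap. Its mean went from 1896 ± 203 (SD, n = 5) to 1309.6 ± 58.9 FPKM (SD, n = 3), a log2 change of -0.53 ± 0.13 (SE, adjusted p = 0.0034).

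Rpl8, a large subunit protein at the centre where peptide bonds form, read 1785 FPKM at 0 h, then 1654, 1661, 1612, 1502 and 1356 FPKM from 1 to 5 h, 1170, 1070 and 1107 FPKM from 6 to 8 h, and 780 FPKM at 24 h. It had no high at 1 h, and the 2 windows did not overlap. The change was -0.48 ± 0.11 (adjusted p = 0.002).

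Rpl35a, another gene mutated in Diamond-Blackfan anaemia, was among the genes with the lowest fold changes that passed, at -0.56 ± 0.17 (adjusted p = 0.0139). It read 213 FPKM at 0 h, 208, 163, 185, 149 and 152 FPKM from 1 to 5 h, 134, 97.6 and 115 FPKM from 6 to 8 h and 95.3 FPKM at 24 h. Its windows did not overlap either. Rpl37a, a large subunit protein, changed by -0.56 (adjusted p = 0.00428), and Rps18 by -0.55 (adjusted p = 0.0143). Small changes that passed included those of Rpl13 (-0.33), Rpl7a (-0.35) and Rplp1 (-0.37), the last from 2882 ± 247 to 2224 ± 137 FPKM.

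Of the genes named for their roles, Rpsa (-0.48), Rpl22 (-0.43), Rps3 (-0.43) and Rplp0 (-0.37) were among the 27. Rpsa doubles as a laminin-binding protein at the cell surface, Rps3 can act in base excision repair, Rpl22 is dispensable for the ribosome and matters for T cell development, and Rplp0 anchors the P stalk. Rpl23 (-0.39, adjusted p = 0.0778), Rps14 (-0.31, 0.0828), Rps19 (-0.24, 0.153), Rplp2 (-0.18, 0.139), Rps7 (-0.45, 0.269), Rpl5 (-0.33, 0.552) and Rps6 (0.01, 0.982) did not pass. A p above the threshold does not show that these differ from the 27. The pyrimidine run near the annotated start did not separate the groups either: 9 of the 21 genes with a run of at least 8 were lower and 8 of the 19 with a shorter run, with median changes of -0.33 and -0.39. That run may lie outside the mRNA, so this split does not bear on the TOP class. Rpl15, with the longest run of those printed, read 17.2 FPKM at 0 h, 21.3 to 24.4 FPKM from 1 to 5 h, 22.9 to 28.5 FPKM from 6 to 8 h and 17.5 FPKM at 24 h, so that none of its libraries lay below the untreated one.

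The number of spleen genes that passed rested on few libraries. Leaving out the 7 h library gave 8, the 1 h library 13, and the 6 h or the 8 h library 17 each, while leaving out the 5 h library gave 31. Without both the 6 h spleen library and the 2 h large intestine library it was 25, and 41 after quantile normalization within the tissue, where 16% of all genes tested were lower. The median change was negative in each of these. No share of all genes is given for the counts with libraries left out, so they are not read against the background.

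**Figure D2:**
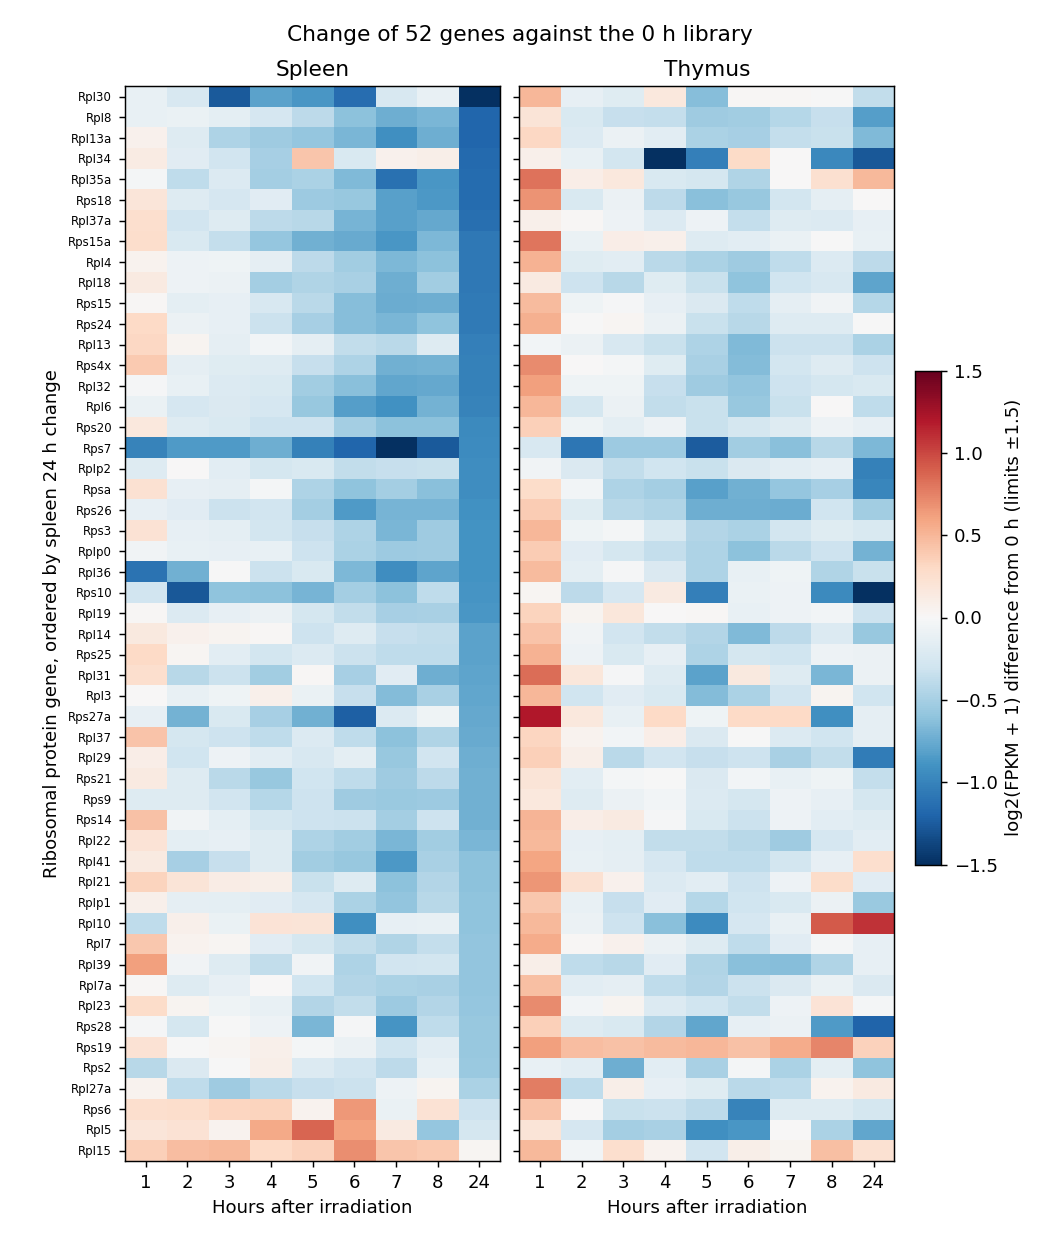
Change of 52 of the 57 genes against the 0 h library (colour, difference in log2(FPKM + 1), limited to ±1.5) by hour in spleen (left) and thymus (right), with genes ordered by their spleen change at 24 h. In spleen every gene drawn except Rpl15 is below the untreated library at 24 h, and in thymus most are above it at 1 h.

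The order of events in spleen can be followed library by library against the untreated one, as the map of each gene's change shows. At 1 h the median difference was 0.13 and 39 of the 57 genes lay above the 0 h library. It was -0.15 at 2 h and at 3 h, -0.26 at 4 h, -0.34 at 5 h, -0.50 at 6 h, -0.62 at 7 h, -0.52 at 8 h and -0.88 at 24 h, when 56 of the 57 lay below. The median over all genes tested stayed between -0.02 and 0.09 in these libraries. The mean of 1 to 8 h against 0 h mixes these phases. No gene passed that test in limma although the median change was -0.30, where 8.61% of all genes tested were called in either direction. An unadjusted p below 0.05 was seen for 12 of the 57, 11 of them lower (21.1%, against 23.3% of all genes tested).

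At 24 h ribosomal protein transcripts of both subunits were lower in spleen than without treatment. Against the 0 h library 29 of the 57 genes passed, all lower (50.9%, background 7.47% lower), with a median change of -0.88. The comparison sets 1 library against 1 library and has no replicate check of its own. Small subunit genes made up 15 of the 29, large subunit genes 12 and P stalk genes 2. Rpl8 (-1.19 ± 0.20, adjusted p = 0.000276), Rpl13a (-1.19 ± 0.25, 0.00231) and Rpl35a (-1.15 ± 0.32, 0.014) were among the lowest that passed, and Rps14 and Rps9 (both -0.72), Rps25 and Rpl14 (both -0.80) the smallest. Rplp2, which had not passed at 6 to 8 h, went from 417 to 218 FPKM (-0.94 ± 0.17, adjusted p = 0.000598).

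**Figure D3:**
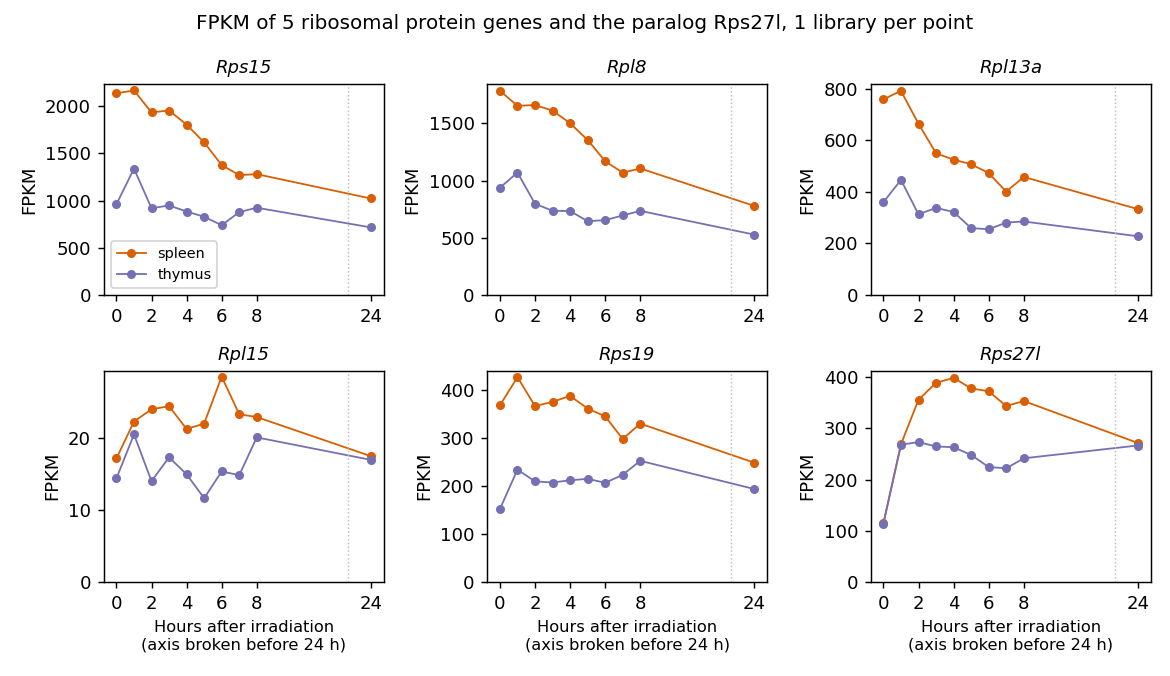
FPKM of Rps15, Rpl8, Rpl13a, Rpl15, Rps19 and the paralog Rps27l (vertical axes, from 0) by hour (horizontal axes, broken before 24 h) in spleen (orange) and thymus (violet), 1 library per point. Spleen Rps15 goes from 2137 FPKM at 0 h to 1023 FPKM at 24 h, while Rps27l goes from 115 FPKM to between 269 and 398 FPKM.

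Thymus had its high at 1 h and lay below the untreated library afterwards, and its course was not tested against that of spleen. At 1 h, 53 of the 57 genes lay above the untreated library, with a median difference of 0.46 in a library where the median of all genes was 0. At that hour the median was also above 0 in spleen (0.13), large intestine (0.22, with 48 genes above) and small intestine (0.17, with 46 above). In NIH3T3 the 1 h median was -0.35. Small intestine had no high at 1 h: its median was above that at 3 h (0.29), 6 h (0.24) and 8 h (0.35). It was lower at 2 h (0.07), 4 h (0.12), 5 h (0.12) and 7 h (-0.07). Each of these medians is read against 1 untreated library. The thymus median was -0.10 at 2 h, reached -0.44 at 5 h with 55 genes below the untreated library, and returned to -0.19 at 8 h before -0.30 at 24 h. At 6 to 8 h against 1 to 5 h, 1 of the 57 genes passed, a small subunit gene that was lower. That is 1.75% of the family, where 13.4% of all genes tested in thymus were lower, and the median change was -0.20. The call rested on the choice of libraries and scale: leaving out single libraries gave 0 to 8 genes, the most without the 5 h library. Quantile normalization gave 21, where 18.2% of all genes tested were lower, so the count depends on the scaling. The direction of the 21 is not given here. Only Rpl19 had all 3 libraries at 6 to 8 h below all 5 at 1 to 5 h, a pattern of 14.3% of genes in thymus. T cell markers went over the same hours from 1880 to 2410 FPKM at 1 to 5 h to 1040 to 1350 FPKM at 6 to 8 h, with their part not tested. For the mean of 1 to 8 h against 0 h, 0 of the 57 passed in limma, where 12.1% of all genes tested were called. An unadjusted p below 0.05 was seen for 3 (5.26%, against 26.1% of all genes tested).

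At 24 h, 8 thymus genes were lower than at 0 h (14%, background 18.6% lower), a share near that of all genes. They were Rps10 (-2.17 ± 0.64, adjusted p = 0.00799), Rpl29 (-1.05), Rplp2 (-1.02 ± 0.17, adjusted p = 5.15e-05), Rpsa (-0.98), Rpl8 (-0.83), Rpl18 (-0.79), Rplp0 (-0.71) and Rpl13a (-0.66). Rplp2 held between 172 and 214 FPKM from 1 to 8 h, close to the 222 FPKM of the untreated library, and stood at 109 FPKM at 24 h. Rps10, another gene of Diamond-Blackfan anaemia, was low throughout, between 4.34 and 10.9 FPKM up to 8 h and 1.41 FPKM at 24 h. The median change of the 57 was -0.30, while that of all genes tested was 0.15 in this comparison. The 24 h thymus library was shallow, held enterocyte transcripts, and had T cell markers at 179 FPKM against 2450 FPKM at 0 h and macrophage markers at 858 FPKM against 241 FPKM. Their part in the result was not tested.

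Rps19 took another course than most of the family in thymus, read against 1 untreated library. It read 153 FPKM at 0 h, 235, 210, 208, 212 and 216 FPKM from 1 to 5 h, 207, 224 and 253 FPKM from 6 to 8 h, and 194 FPKM at 24 h. All 9 irradiated libraries lay above the untreated one, while from 2 h on most members lay below. The difference of 1 to 8 h from 0 h was 0.53 ± 0.18, with an adjusted p of 0.0587 that misses the threshold, and was 0.31 after quantile normalization. At 24 h the difference of 0.35 had the opposite sign after quantile normalization, -0.42. In spleen the same gene read 369 FPKM at 0 h and 249 FPKM at 24 h. The limit from its named pseudogenes, given above, holds for these values too.

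In the intestines few of these genes were called. Small intestine had 0 genes called for 1 to 8 h against 0 h in limma, where 0.316% of all genes tested were called. The median change was 0.17, and 48 of 57 changes were positive. An unadjusted p below 0.05 was seen for 3, all higher (5.26%, against 6.56% of all genes tested). At 24 h small intestine again had 0 genes called, where 0.184% of all genes were, and 3 had an unadjusted p below 0.05 (5.26%, against 6.89%). Rps21 was the gene nearest the threshold: 117 FPKM at 0 h against 166 to 257 FPKM from 1 to 8 h and 178 FPKM at 24 h, a change of 0.81 ± 0.20 for 1 to 8 h (adjusted p = 0.0817). At 6 to 8 h against 1 to 5 h, 1 gene was called lower (background 0.14%), Rpl34, at -2.88. It read 15.6, 9.09, 16.3, 11.4 and 13.5 FPKM from 1 to 5 h and 5.75, 0 and 0 FPKM from 6 to 8 h, so the call rests on values listed at 0. In NIH3T3 and the other tissues Rpl34 was never at 0. Rpl34 was also the only member whose small intestine libraries at 6 to 8 h all lay below those at 1 to 5 h, where 5.84% of genes did.

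Large intestine had 0 genes called in each of the comparisons in limma. For 1 to 8 h against 0 h, 1.51% of all genes tested were called. An unadjusted p below 0.05 was seen for 0 of the 57 genes and for 14% of all genes tested. For 6 to 8 h against 1 to 5 h, 0.54% of all genes were called. Of the 57, 5 had an unadjusted p below 0.05, 4 of them lower (8.77%, against 13.7% of all genes). At 24 h, where 0.262% of all genes were called, 5 did, all lower (8.77%, against 7.47% of all genes). The median change at 24 h was -0.35, with 53 of the 57 genes below the 0 h library. All 3 libraries at 6 to 8 h lay below those at 1 to 5 h for 2 members, among them Rps27a, a pattern of 2.24% of genes tested there.

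NIH3T3 fibroblasts held these genes slightly below the untreated culture at every hour. Median differences from 0 h lay between -0.50 at 7 h and -0.15 at 3 h, and all 52 tested genes lay below the untreated library at 7 h and at 9 h. For 1 to 8 h against 0 h, 0 genes passed in limma, where 4.47% of all genes tested were called. An unadjusted p below 0.05 was seen for 17 of the 52, all lower (32.7%, against 25% of all genes tested in either direction). At 6 to 8 h against 1 to 5 h, 0 passed, where 2.3% of all genes were called, and 5 had an unadjusted p below 0.05 (9.62%, against 20.2%). In that comparison 3 genes, Rpl30, Rpl7a and Rps27a, had all libraries of the later window below the earlier (6.48% of genes). At 9 to 12 h against 1 to 5 h, Rpl34 was lower (-0.59 ± 0.16, adjusted p = 0.0277, background 6.52% lower), from 12.8 ± 2.25 FPKM (SD, n = 5) to 8.06 ± 0.72 (SD, n = 4). At 24 h against 0 h, Rps15a was lower (-0.69 ± 0.19, adjusted p = 0.0307, background 5.4% lower), from 25.7 to 15.5 FPKM. Neither call held when genes with low values were left in the test. The 0 h state is read from 1 library.

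**Figure D4:**
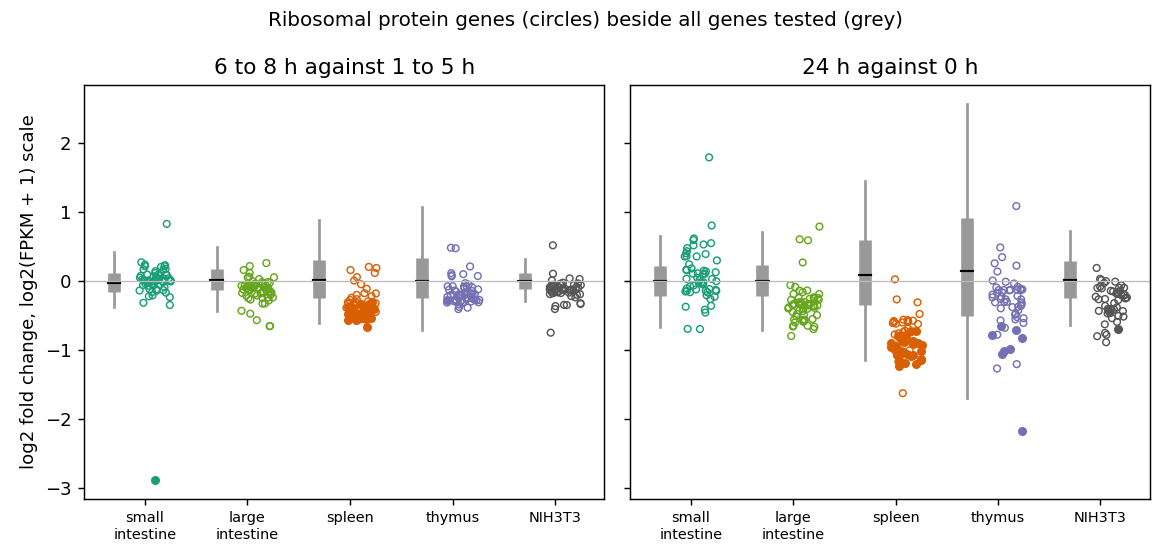
Log2 fold change of each ribosomal protein gene tested (circles, filled where adjusted p is below 0.05) beside all genes tested (thick grey bar, 25th to 75th percentile; thin line, 5th to 95th percentile; black tick, median) at 6 to 8 h against 1 to 5 h (left) and 24 h against 0 h (right) in the 5 systems. Spleen has 27 and 29 filled circles, all below 0, and thymus 1 and 8.

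The difference between the lymphoid organs and the intestines was tested on its own. For the change of 1 to 8 h from 0 h, 0 of the 57 genes differed in limma, where 2.78% of all genes tested did. An unadjusted p below 0.05 was seen for 6, all more negative in spleen and thymus (10.5%, against 17.5% of all genes tested). The later changes were tested in the same way, with tests added after the data were seen. For the change from 1 to 5 h to 6 to 8 h, 5 genes were lower in spleen and thymus relative to the intestines (8.77%, background 12.8% lower): Rpl32 (-0.46), Rps4x (-0.41), Rps26 (-0.36), Rpl8 (-0.36 ± 0.11, adjusted p = 0.0135) and Rps15 (-0.33). Rpl34 differed the other way (1.81, background 16.6% higher), with 2 of its small intestine values listed at 0. For the change from 0 h to 24 h, 8 genes were lower (14%, background 11.2%), and the median difference was -0.42 against 0.07 for all genes. On this scale both shares of lower genes are near those of all genes. The 6 genes called in either direction at 6 to 8 h became 3 to 19 when single libraries were left out, with the most without the 1 h large intestine library. After quantile normalization 35 were called in either direction for that difference and 27 for the one at 24 h, so the counts depend on the scaling. Of all genes tested, 16.9% and 16.8% were then lower. The shares that were higher are not given, so the 35 and 27 are not read against the background.

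Ribosomal protein genes moved together from library to library where they were abundant. The correlation of a gene with the median of the others across the libraries of a system had a median of 0.93 in spleen (10 libraries), 0.88 in thymus (10), 0.79 in large intestine (10), 0.77 in NIH3T3 (14) and 0.67 in small intestine (10). These values describe libraries that share depth and composition. Genes with at least 20 FPKM reached a median of 0.95 in spleen and 0.90 in thymus, against 0.39 and 0.62 for the lower genes. The lowest mean correlations over the 5 systems were those of Rpl10 (0.26), Rpl34 (0.32), Rps2 (0.35) and Rps10 (0.35). Rpl10, which helps complete the large subunit, had a median of 3.22 FPKM.

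**Figure D5:**
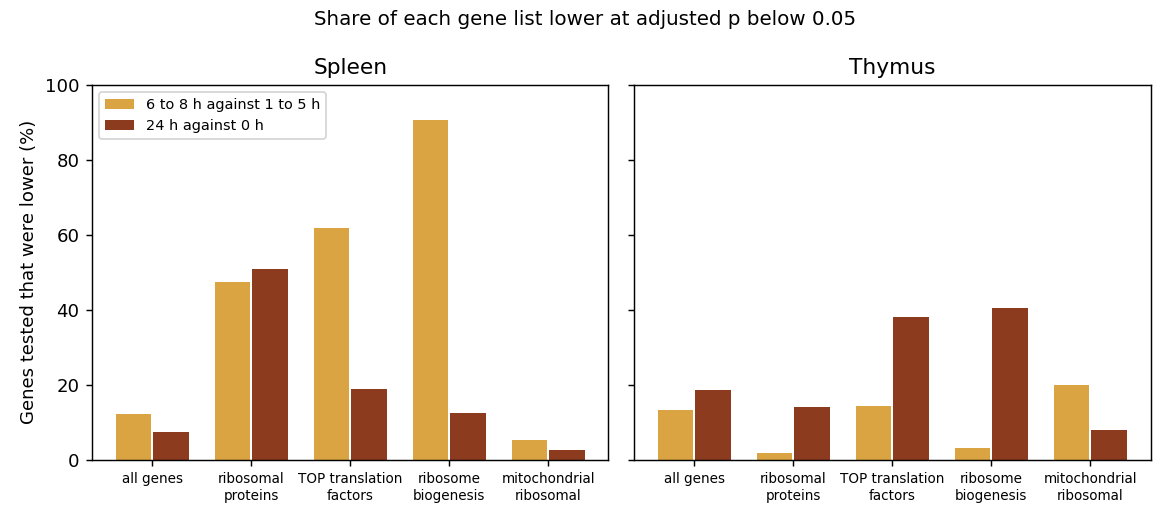
Share of the genes tested in each list that were lower at adjusted p below 0.05 (vertical axis, percent) in spleen (left) and thymus (right), at 6 to 8 h against 1 to 5 h (light) and 24 h against 0 h (dark). In spleen at 6 to 8 h the share is 12.2% of all genes, 47.4% of ribosomal protein genes, 61.9% of TOP translation factors, 90.6% of ribosome biogenesis genes and 5.33% of mitochondrial ribosomal protein genes.

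Other genes of translation were read from lists taken by function. Of all genes tested in spleen, 12.2% were lower at 6 to 8 h against 1 to 5 h. Ribosome biogenesis genes, which make and fold ribosomal RNA in the nucleolus, were lower in that comparison for 29 of 32, with a median of -0.74. Their summed share of the spleen libraries was 0.196% at 0 h, 0.278%, 0.499%, 0.375%, 0.243% and 0.194% from 1 to 5 h, 0.134% to 0.183% at 6 to 8 h and 0.0998% at 24 h, so the earlier window held a high above the untreated level. Fbl, the methylase of ribosomal RNA, changed by -1.28 ± 0.32 (adjusted p = 0.00498), Polr1b, a subunit of RNA polymerase I, by -1.06, Nop56 by -0.89 and Ncl, nucleolin, by -0.81. Gar1, Nip7 and Wdr12 did not pass. Translation factors of the TOP class were lower for 13 of 21, with a median of -0.32: Eif3e changed by -0.59, Eef1a1, the carrier of aminoacyl-tRNA, by -0.34, and Eef2, which moves the ribosome along the mRNA, by -0.27. Mitochondrial ribosomal proteins, which serve a separate ribosome, were lower for 4 of 75 and higher for 3, with a median of -0.06. Gnb2l1, the small subunit protein also called Rack1, fell outside the naming rule and was lower (-0.41, adjusted p = 0.0122), while Fau (-0.25) did not pass.

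The same lists were read in thymus, with no test of a difference in timing between the organs. The summed share of biogenesis genes there was 0.275% at 0 h, 0.302% at 1 h, 0.144% at 5 h and 0.0973% at 24 h. At 6 to 8 h against 1 to 5 h, ribosome biogenesis genes were lower for 1 of 32, where 13.4% of all genes tested were lower, and higher for 4. At 24 h against 0 h they were lower for 13 of 32, with Nop56 at -2.01 ± 0.43 (adjusted p = 0.000538), and TOP translation factors were lower for 8 of 21, where 18.6% of all genes tested were. In spleen at 24 h, 4 of 32 biogenesis genes and 4 of 21 TOP factors passed, where 7.47% of all genes tested were lower. Their median changes were -0.84 and -0.52. In NIH3T3, 12 of 32 biogenesis genes were lower at 6 to 8 h against 1 to 5 h, where 1.44% of all genes tested were, with a median of -0.31.

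Myc, a transcription factor known to drive ribosome production, had its highest spleen value at 1 h. It read 20.5 FPKM at 0 h, 193, 71.5, 23.9, 22.8 and 28.1 FPKM from 1 to 5 h, 24, 17.1 and 11.3 FPKM from 6 to 8 h and 5.08 FPKM at 24 h. The later window differed from the earlier by -1.42 ± 0.33 on the log2 scale (adjusted p = 0.00296), with the first 2 hours above the rest. In thymus Myc went the other way between the windows, from 17.1, 7.5, 10.4, 17.2 and 19.5 FPKM to 26.6, 27.1 and 39.7 FPKM (1.12 ± 0.33, adjusted p = 0.0117), and read 6.1 FPKM at 24 h against 28 FPKM at 0 h.

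The paralog Rps27l, a known p53 target that the naming rule left out, was called higher at 1 to 8 h in all 4 tissues, where no member was called. In spleen it went from 115 FPKM at 0 h to 269, 356, 389, 398 and 378 FPKM from 1 to 5 h, 372, 343 and 353 FPKM from 6 to 8 h and 271 FPKM at 24 h. The change of 1 to 8 h from 0 h was 1.62 ± 0.15 (adjusted p = 2.05e-07), and all 9 irradiated libraries lay above the untreated one. In thymus it was 1.12 ± 0.15 (adjusted p = 3.9e-05), from 114 FPKM to between 222 and 273 FPKM. In small intestine it was 0.81 ± 0.15 (adjusted p = 0.0125) and in large intestine 0.69 ± 0.15 (adjusted p = 0.0208). In NIH3T3 it read 414 FPKM at 0 h and 301 to 380 FPKM later, a change of -0.27 that did not pass (adjusted p = 0.208). The change in the lymphoid organs exceeded that in the intestines by 0.63 ± 0.15 (adjusted p = 0.0264).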

How the data were processed

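Polyadenylated RNA of 54 mouse libraries was sequenced, and the deposited matrix gives 1 FPKM value per gene and library for 13611 genes. The authors' values are FPKM made with TopHat2 2.1.0 and Cufflinks 2.1.1 on mm10, per the submitters' processing notes. How fragments were shared between a gene and its copies, and how the listed genes were chosen, is not stated in the labels. The files hold no counts, so the depth is unknown apart from the rough relative depth given with the results, and no counting interval can be set.

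The test was limma 3.58.1 (R 4.3.3) with a mean-variance trend, on values of log2(FPKM + 1). One model held the 40 tissue libraries, with a mean for each tissue and window and 20 residual degrees of freedom, and another held NIH3T3, with 8. Genes with a mean of at least 1 FPKM in the system were tested, or in each of the 4 tissues for comparisons across tissues. P-values were adjusted by Benjamini-Hochberg over all genes tested, and a gene was called at an adjusted p below 0.05. Fold changes on this scale understate the change of low genes. The 0 h library of a system enters both its 1 to 8 h and its 24 h comparison, so these are not independent.

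Members were named for a known role, as the 4 highest and 4 lowest fold changes among those called in a comparison, for values listed near 0, or as the 4 least correlated with the rest. Rps21, Rpl15 and Rpl41 were named after their values were seen, as were the sequences and the genes of small counts. Values of a few single genes are not reported here. The members and lists were chosen with earlier results of these data known. The alternatives were a pseudocount of 0.1, no filter on low values, quantile normalization, median-ratio scaling computed without these genes, a fit for each tissue, a block for the hour, and leaving out libraries or genes. The model was tested on simulated data.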

Additional observations from a re-analysis of the deposited data

Results flagged for a closer look

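In NIH3T3 at 9 to 12 h, the 9 h library lay far below the other 3 for 4 genes by Dixon's test at the 95% level. Rpl21 read 23.9 FPKM, Rps14 328 FPKM, Rps15 1190 FPKM and Rps27a 4.21 FPKM in that library. Of 53 gene and window values tested, 4 stood out, and chance gives about 1 in 20. All 52 members tested in NIH3T3 lay below the 0 h library at 9 h.

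The change from 1 to 5 h to 6 to 8 h differed between the lymphoid organs (spleen and thymus) and the intestines for 6 genes, by a test of the difference itself in limma. It was lower in the lymphoid organs for Rpl32 (-0.46), Rps4x (-0.41), Rps26 (-0.36), Rpl8 (-0.36) and Rps15 (-0.33), and higher for Rpl34 (1.81), which was listed at 0 in 2 small intestine libraries. Of all genes tested, 12.8% were lower and 16.6% higher, so the share of lower members is near that of all genes. The count of 6 became 3 to 19 when single libraries were left out. This test, like the one at 24 h below, was added after the data were seen.

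The change from 0 h to 24 h was lower in the lymphoid organs for 8 of the 57 genes: Rps10 (-1.93), Rpsa (-1.0), Rplp2 (-0.999), Rpl18 (-0.99), Rpl8 (-0.94), Rpl14 (-0.82), Rpl29 (-0.82) and Rpl13a (-0.72). Of all genes tested, 11.2% were lower, so this share too is near that of all genes. Rpl8, the large subunit protein of the peptide bond centre, was the one gene in both groups. Each of these rests on single 0 h and 24 h libraries, and the thymus library at 24 h held enterocyte transcripts, whose part was not tested.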

How the results depend on the processing

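Counts of ribosomal protein genes called depended on single libraries and on scaling, while the median change in spleen at 6 to 8 h against 1 to 5 h stayed between -0.55 and -0.32 in all settings run. Leaving out 1 library at a time gave 8 to 31 genes in spleen at 6 to 8 h (27 with all), 0 to 8 in thymus (1 with all), and 3 to 19 for the difference of that change between lymphoid organs and intestines (6 with all). It gave 0 to 1 in each of small intestine at 1 to 8 h and at 6 to 8 h, large intestine at 6 to 8 h, spleen at 1 to 8 h, and NIH3T3 at 1 to 8 h, 6 to 8 h and 9 to 12 h. The single 0 h and 24 h libraries could not be left out. No share of all genes is given beside these counts, so they are not read against the background.

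Quantile normalization gave 41 genes in spleen at 6 to 8 h, 1 in thymus at 1 to 8 h, 21 in thymus at 6 to 8 h and 28 at 24 h, 35 and 27 for the differences at 6 to 8 h and at 24 h, 0 in NIH3T3 at 24 h and 2 at 9 to 12 h. Of all genes tested it gave 16% lower in spleen at 6 to 8 h, 18.2% and 25.3% in thymus at 6 to 8 h and 24 h, and 16.9% and 16.8% for the differences. The counts of 35 and 27 hold either direction, while these shares hold lower genes only. Quantile normalization moved the median of all genes from 0.09 to -0.03 in spleen and from 0.15 to -0.12 in thymus at 24 h, and from 0.07 to -0.11 for the 24 h difference. Median-ratio scaling gave 13 for the 6 to 8 h difference and 2 in NIH3T3 at 9 to 12 h. In thymus at 6 to 8 h the count was 0 with a pseudocount of 0.1, with no filter and with a separate fit. No filter also gave 0 in NIH3T3 at 24 h and at 9 to 12 h. Separate fits gave 0 in small intestine at 6 to 8 h, 1 in spleen at 1 to 8 h and 1 in thymus at 1 to 8 h. Without the spleen library at 6 h and the large intestine library at 2 h the count was 1 in small intestine and 1 in thymus at 1 to 8 h, and 2 in thymus at 6 to 8 h. Without members listed near 0 it was 0 in small intestine at 6 to 8 h. Of alternatives added after seeing the data, members of at least 20 FPKM gave 0 in small intestine at 6 to 8 h and 0 in NIH3T3 at 24 h and at 9 to 12 h, and leaving out the 1 h and 2 h large intestine libraries gave 16 for the 6 to 8 h difference. The cause was not tested, except that leaving out genes or libraries removes those values.

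With the hour as a replicate block across the tissues, 18 genes passed for the 6 to 8 h difference, 10 for the 24 h difference, 0 for the 1 to 8 h difference, and 49, 55 and 46 for the levels. The share of all genes is not given for these counts either. Deviations of libraries of the same hour correlated at -0.087 to 0.289 over 8 hours in 6 pairs of tissues. The highest value was in spleen and thymus, where 2 of the 8 hours exceeded 0.1. Such correlations between different organs cannot show whether the libraries of an hour came from the same animal, so any pairing stays unknown. The unknown depth limits genes of low level most.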
